A study of Mus musculus with 28 samples.

Results

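The genes described here are 41 genes of DNA replication and S phase, chosen by name from the 53647 gene IDs of the mouse count table. They fall into 9 roles: origin licensing (Orc1, Orc6, Cdc6, Cdt1), the MCM helicase (Mcm2 to Mcm7), helicase activation (Cdc45, Gins1 to Gins4, Mcm10), polymerases and primase (Pola1, Pole, Pold1, Prim1), the sliding clamp with its loader and the flap nuclease (Pcna, Rfc2 to Rfc5, Fen1), nucleotide supply (Rrm1, Rrm2, Tyms, Tk1, Dut), E2F factors and cyclin E (E2f1, E2f2, Ccne1, Ccne2), chromatin and histone supply (Chaf1a, Chaf1b, Uhrf1, Slbp) and the fork checkpoint (Clspn, Tipin). All 41 genes matched a single ID and passed the filter on low counts in both sorts.

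RNA was sequenced from vascular cells of mouse brains with experimental brain metastasis (BrM) and without tumor. All groups, the non-tumor ones included, came from PDGFRb-CreERT2; Rosa-tdTomato mice, in which tamoxifen (2 mg a day on 5 days) switches on a red reporter in cells that express Pdgfrb; ages are not given in the sources used here. Breast BrM grew from PyMT-BrM3 cells and lung BrM from Sv2T3-BrM1 cells, each a single brain-homing cancer line injected into the heart. After cells positive for CD45, CD11B or EPCAM were gated out, endothelial cells were taken as CD31+ and mural cells as tdTomato+. The CD31 sort held 5 breast BrM, 5 lung BrM and 5 non-tumor libraries, and the PDGFRb sort held 4, 4 and 5, which came from 15 animals or pools; both sorts were sequenced for 13 of these. Pools are the lung libraries named with 2 mouse numbers (55169-70 and 56195-56520).

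Cells copy their DNA in S phase. Origins are licensed by loading of the MCM helicase, which Cdc45 and the GINS complex then activate, and polymerases work behind it with the clamp PCNA, while enzymes of the nucleotide supply provide precursors. E2F factors and cyclin E drive this program at the start of S phase, so its genes are usually low in resting cells. Adult brain endothelium divides rarely, and vessels around tumors can enter the cycle, whereas cancer cells cycle throughout. The comparisons below ask how far the replication genes differed between BrM and non-tumor brain in each sort, and how far the levels in the endothelial sort exceeded what RNA of cancer cells carried along in that sort could provide.

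Libraries held 7105171 to 23934038 counts, so that 3 counts stood at 0.125 to 0.422 CPM (counts scaled to a total of 1000000 per library). The CD31 label held: endothelial marker sums were 6510 to 12100 CPM in breast BrM, 9150 to 13000 CPM in lung BrM and 14200 to 16100 CPM in non-tumor libraries. All BrM libraries thus lay below all non-tumor ones, with breast mouse 53072 lowest. The same held for Pecam1, at 591 to 1290 CPM in BrM and 1360 to 1440 CPM in non-tumor libraries. The PDGFRb label did not hold for 3 lung libraries (54957, 55169-70 and 56195-56520), whose 10 mural markers summed to 323 to 552 CPM, against 19100 to 39600 CPM in non-tumor libraries, and whose Pdgfrb stood at 35.9 to 42.1 CPM. Their epithelial genes, a mark of the cancer cells in brain, summed to 9420 to 11500 CPM. The fewest counts were those of breast mouse 51950 in the PDGFRb sort, and 21 of the 41 replication genes were at 0 in it. Mouse 54135 has a title and a cell type label that name opposite sorts, and its libraries were grouped by title, which is the sort their Pecam1 and Pdgfrb levels match (1360 and 0.227 CPM in the library titled CD31, 4.01 and 855 CPM in the library titled PDGFRb).

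In the CD31 sort, replication genes were higher in BrM in nearly all roles. Of the 41 genes, 31 were higher in BrM and 0 were lower by edgeR's quasi-likelihood test at a Benjamini-Hochberg adjusted p under 0.05 (called genes in what follows), against 21.6% of the 14876 genes tested that were called higher. The median log2 change of the 41 genes was 1.52, against 0.01 over all genes tested, and stayed 1.52 with E2f1 set to its lower bound. All 4 licensing genes, 5 of 6 MCM genes, 3 of 6 helicase activators, 1 of 4 polymerase and primase genes, 5 of 6 genes of the clamp group, 5 of 5 nucleotide enzymes, 3 of 4 genes of the E2F and cyclin E group, 4 of 4 chromatin genes and 1 of 2 fork checkpoint genes were called. With breast and lung BrM taken apart, 30 genes were called higher in breast BrM, beside 18.6% of all genes, and 29 in lung BrM, beside 20.4%. In 17 of the 41 genes the lowest BrM library stood above the highest non-tumor library, beside 9.24% of all genes. The summed level of the 41 genes was 985 to 2290 CPM in breast BrM and 1180 to 2130 CPM in lung BrM, against 678 to 768 CPM in non-tumor libraries, so the groups did not overlap. Bulk RNA cannot tell a larger share of cycling cells from more RNA per cell.

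The same libraries also held RNA of other cell types, with the clearest difference in epithelial genes. The 16 epithelial genes summed to 177 to 3880 CPM in breast BrM and 144 to 2370 CPM in lung BrM, against 9.04 to 16.9 CPM in non-tumor CD31 libraries, and 13 of the 14 that passed the filter were called higher. In spite of the EPCAM gate, Epcam itself had 14.1 to 389 CPM in CD31 breast BrM and 0 to 39.8 CPM in CD31 lung BrM. Non-tumor CD31 libraries had 0 to 0.808 CPM. Epcam was at 0 in the CD31 libraries of the lung pools 55169-70 and 56195-56520. It was low in PDGFRb lung BrM too, at 5.94 to 31.9 CPM beside 2490 to 4030 CPM of Krt8. Astrocyte markers summed to 274 to 704 CPM in BrM and 98.7 to 173 CPM in non-tumor CD31 libraries, with 1 of 5 tested called higher and 1 lower. Immune sums overlapped, at 1.98 to 124 CPM and 1.68 to 8.07 CPM, with 2 of 8 tested called higher. Over all genes tested, 21.6% were called higher. The mural, oligodendrocyte, neuron, fibroblast and red cell sums overlapped between BrM and non-tumor libraries too. The part of astrocyte and immune RNA in the results was not tested. With the log2 epithelial sum as a covariate, 5 replication genes were called (Ccne1, E2f1, E2f2, Rrm2 and Tk1), but this sum does not overlap between BrM and non-tumor libraries, so the covariate and the condition cannot be told apart. In the 2 CD31 libraries of each origin with the lowest epithelial sums, set against all non-tumor libraries, 24 of the 31 genes were called, and Chaf1a, Chaf1b, Mcm2, Orc1, Orc6, Rfc3 and Rrm1 were not. The share of all genes called in this fit is not given here.

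**Figure D1:**
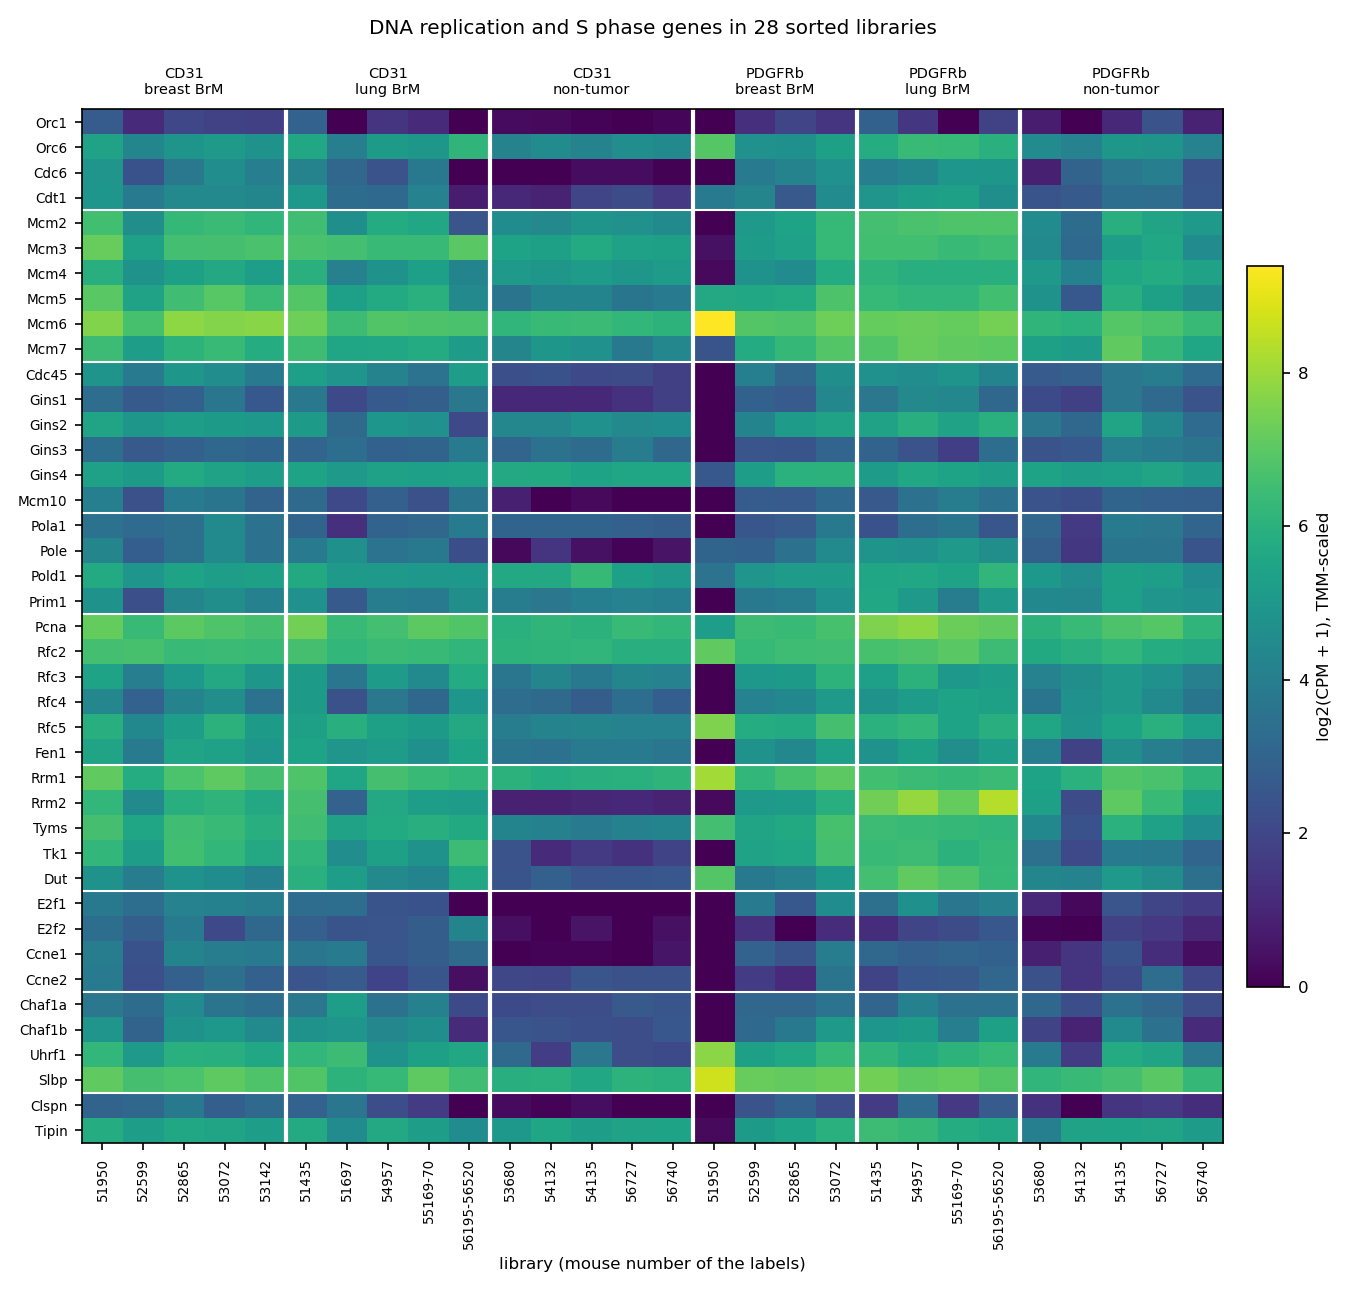
Level of each of the 41 replication genes (rows, grouped by role between white lines) in each of the 28 libraries (columns, by mouse number), as log2(CPM + 1) after TMM scaling, with brighter colour for more RNA. In the CD31 sort the non-tumor columns are dark for genes such as E2f1, Cdc6, Ccne1 and Rrm2, and the PDGFRb breast column of mouse 51950 is dark for the 21 genes at 0.

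The licensing factors mark future origins. Orc6, a subunit of the origin recognition complex and the licensing gene with the highest level per length in the mean FPKM over all 28 libraries, had 42.2, 18.7, 28.1, 32.5 and 27.7 CPM in breast BrM and 47.4, 15.4, 33.4, 30.1 and 69.1 CPM in lung BrM, against 17.6, 22.2, 17.4, 23.5 and 21.1 CPM in non-tumor libraries. Breast mouse 52599 at 18.7 CPM lay within the non-tumor range and lung mouse 51697 at 15.4 CPM below it, and the change was small (log2 0.80 ± 0.29, adjusted p = 0.038). Cdc6, which loads the MCM ring together with Cdt1, was nearly absent without tumor: it had 29, 4.17, 12.5, 23.6 and 15.2 CPM in breast BrM and 17.5, 7.69, 4.36, 13.1 and 0 CPM in lung BrM, against 0, 0, 0.227, 0.233 and 0.0511 CPM in non-tumor libraries. All BrM libraries but the lung pool 56195-56520, which was at 0, stood above the non-tumor ones (log2 6.83 ± 1.21, adjusted p = 0.00034, from 9 counts over the 5 non-tumor libraries). Cdt1 (log2 3.05 ± 0.64, adjusted p = 0.0014) and Orc1, the largest subunit of the recognition complex (log2 4.39 ± 1.27, adjusted p = 0.012), were called as well. Orc1 was low throughout, with 0 to 6.83 CPM in BrM and 0 to 0.215 CPM in non-tumor libraries.

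The 6 MCM proteins form the ring that unwinds DNA. Mcm6, their highest member per length in the mean over all 28 libraries (70.3 ± 20.3 and 42.5 ± 11.9 FPKM in breast and lung BrM, 27.7 ± 1.66 FPKM in non-tumor libraries, SD, n = 5 each, with Mcm3 higher in CD31 BrM at 74.4 ± 22.3 and 68.3 ± 20.4 FPKM), had 194, 101, 223, 202 and 211 CPM in breast BrM and 161, 86.4, 113, 108 and 103 CPM in lung BrM, against 71, 81.5, 83.8, 74 and 66.6 CPM in non-tumor libraries. All 10 BrM libraries exceeded the 5 non-tumor ones (log2 1.0 ± 0.18, adjusted p = 0.00048). Mcm5 changed most in this group (log2 2.38 ± 0.37, adjusted p = 9.4e-05), followed by Mcm7 (1.52 ± 0.27), Mcm2 (1.27 ± 0.46) and Mcm3 (1.22 ± 0.23). The call of Mcm2 was lost on leaving out any of 11 single CD31 libraries and that of Orc6 on leaving out any of 8. Mcm4 was not called: it had 60, 27.5, 39.7, 50 and 36.6 CPM in breast BrM and 60.9, 15.9, 27.5, 38.8 and 18 CPM in lung BrM, against 31.7, 30.7, 35.5, 30.7 and 35 CPM in non-tumor libraries. Its BrM values lay on both sides of the non-tumor ones (log2 0.23 ± 0.27, adjusted p = 0.55).

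Helicase activation split into called and uncalled genes. Cdc45 (log2 2.86 ± 0.36, adjusted p = 1.4e-05) and Gins1 (log2 2.48 ± 0.48, adjusted p = 0.00073), parts of the active helicase, were higher in all 10 BrM libraries than in any non-tumor library. Mcm10, which helps start unwinding, had 15.7, 4.01, 14.2, 11.7 and 6.96 CPM in breast BrM and 8.41, 3.22, 6.29, 4.07 and 11.3 CPM in lung BrM, against 0.753, 0, 0.17, 0 and 0 CPM in non-tumor libraries. The groups did not overlap, with 17 counts over the 5 non-tumor libraries (log2 5.48 ± 0.99, adjusted p = 0.0004). The other 3 GINS subunits were not called. Gins4, the gene of this role with the highest mean FPKM over all 28 libraries, had 40.7, 33.9, 52.8, 41.4 and 36.8 CPM in breast BrM and 42.3, 32.7, 40.8, 38.4 and 40.7 CPM in lung BrM, against 50, 50.7, 43.3, 45.3 and 46.4 CPM in non-tumor libraries. Its BrM values were mostly below the non-tumor ones (log2 -0.19 ± 0.13, adjusted p = 0.29). Gins3 had 9.46, 5.14, 6.41, 7.75 and 7.06 CPM in breast BrM and 7.31, 9.41, 6.51, 7.12 and 13.3 CPM in lung BrM, against 7.42, 10.3, 8.9, 14.3 and 7.86 CPM in non-tumor libraries. No BrM library exceeded the highest non-tumor one, and 6 of 10 lay below the lowest (log2 -0.25 ± 0.31, adjusted p = 0.55). Gins2 had 43.5, 30.5, 37.7, 33.6 and 30.9 CPM in breast BrM and 33.4, 8.62, 30, 26.3 and 3.21 CPM in lung BrM, against 19.4, 19.3, 26, 20.6 and 22.5 CPM in non-tumor libraries. Breast BrM lay above the non-tumor range, while 2 lung libraries at 8.62 and 3.21 CPM lay below it (log2 0.35 ± 0.37, adjusted p = 0.49).

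Of the polymerase genes, Pole, the catalytic subunit of the leading-strand polymerase, was called (log2 4.67 ± 0.75, adjusted p = 0.00014), with 3.84 to 25.2 CPM in BrM and 0.0582 to 1.74 CPM in non-tumor libraries. Pold1, the catalytic subunit of the lagging-strand polymerase, had 52.4, 29.5, 43.2, 37.6 and 39.9 CPM in breast BrM and 51.3, 32, 31.7, 30.9 and 31.6 CPM in lung BrM, against 50.4, 49.9, 78.4, 39 and 32 CPM in non-tumor libraries. No BrM library exceeded the highest non-tumor library, which was mouse 54135 (log2 -0.35 ± 0.21, adjusted p = 0.2), and the sign turned on the FPKM scale. Pola1, the catalytic subunit of the polymerase that primes synthesis, had 10.5, 8.67, 10.2, 21.5 and 10.3 CPM in breast BrM and 7.07, 1.49, 7.01, 7.57 and 13.7 CPM in lung BrM, against 7.1, 7.15, 7.26, 6.35 and 5.77 CPM in non-tumor libraries. The breast library of mouse 53072 stood apart at 21.5 CPM, and the change did not pass (log2 0.55 ± 0.41, adjusted p = 0.32). Prim1, the primase that lays down RNA primers, had 26.4, 3.93, 18.5, 23.9 and 16.5 CPM in breast BrM and 25.7, 5.25, 14.4, 14 and 24 CPM in lung BrM, against 14.4, 12.1, 15.7, 17.1 and 15.7 CPM in non-tumor libraries. The BrM values spread around the non-tumor ones (log2 0.25 ± 0.39, adjusted p = 0.65).

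The clamp PCNA holds the polymerase on DNA, and the RFC complex loads it. Pcna had 144, 81.7, 131, 112 and 97.6 CPM in breast BrM and 168, 82.2, 96.4, 130 and 115 CPM in lung BrM, against 62.2, 70.4, 64.9, 82.3 and 73.7 CPM in non-tumor libraries. It rose modestly (log2 0.76 ± 0.18, adjusted p = 0.0028), and 8 of 10 BrM libraries exceeded all non-tumor ones. Rfc5 had 60.7, 20, 36.7, 64.1 and 33.6 CPM in breast BrM and 39.6, 59.1, 39.9, 34.2 and 49.6 CPM in lung BrM, against 15, 17.4, 18.2, 17 and 16.9 CPM in non-tumor libraries. These groups did not overlap (log2 1.42 ± 0.26, adjusted p = 0.00036). Rfc3 (log2 1.09 ± 0.33) and Rfc2 (log2 0.42 ± 0.11, the smallest called change of the 41) were called too, as was Fen1, which trims Okazaki flaps (log2 1.57 ± 0.26, adjusted p = 0.00021). Rfc4 had 19.5, 6.66, 17.6, 24.2 and 10.7 CPM in breast BrM and 33.8, 4.02, 12.2, 8.14 and 29.3 CPM in lung BrM, against 9.25, 8.43, 5.9, 9.43 and 6.07 CPM in non-tumor libraries. The lowest BrM libraries, at 6.66, 4.02 and 8.14 CPM, fell inside or under the non-tumor range (log2 1.14 ± 0.46, adjusted p = 0.063).

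All 5 nucleotide enzymes were called. Tyms, thymidylate synthase and the highest of them in mean FPKM over all 28 libraries, though below Rrm1 in non-tumor CD31 libraries (16.1 against 20.2 FPKM) and below Dut and Rrm2 in PDGFRb lung BrM, had 97, 44.7, 89.5, 80.9 and 59.7 CPM in breast BrM and 89.5, 41.2, 53.2, 59.1 and 51 CPM in lung BrM, against 17.7, 16.5, 13.8, 16.5 and 17.9 CPM in non-tumor libraries. All BrM libraries stood above the non-tumor ones (log2 2.05 ± 0.22, adjusted p = 2.7e-06). Dut, which removes dUTP, had 27, 14.4, 26.8, 23 and 16.3 CPM in breast BrM and 62.2, 36.3, 20.3, 17.7 and 47.1 CPM in lung BrM, against 4.46, 6.4, 4.59, 4.72 and 4.8 CPM in non-tumor libraries. Its groups did not overlap either (log2 2.55 ± 0.33, adjusted p = 1.8e-05). Rrm2, the S phase subunit of ribonucleotide reductase, had 73.7, 21.4, 58.9, 67.7 and 50 CPM in breast BrM and 96.6, 6.82, 50, 37.7 and 34.7 CPM in lung BrM, against 0.806, 0.808, 1.02, 1.11 and 0.919 CPM in non-tumor libraries. The lowest BrM library, lung mouse 51697, was still above the highest non-tumor library (log2 5.77 ± 0.56, adjusted p = 9e-07). Its partner Rrm1, present in resting cells too, changed by log2 0.63 ± 0.22, adjusted p = 0.029, a call lost without non-tumor library 54132 or 54135. Tk1, which salvages thymidine, had 23.4 to 92.6 CPM in BrM and 1.24 to 4.25 CPM in non-tumor libraries (log2 4.63 ± 0.44, adjusted p = 7.3e-07).

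E2F factors and cyclin E sit upstream of these genes. E2f1 had 12.8, 9.63, 16.8, 16.5 and 14.5 CPM in breast BrM and 9.33, 9.65, 4.43, 4.12 and 0 CPM in lung BrM, against 0, 0, 0, 0 and 0 CPM in non-tumor libraries. With 1667 counts in BrM and 0 in the 5 non-tumor libraries, it was at least 320-fold higher (against 3 counts over the non-tumor group, adjusted p = 0.00015), and 9 of 10 BrM libraries held counts. E2f2 had 9.5, 6.26, 13.5, 3.21 and 7.92 CPM in breast BrM and 6.28, 4.39, 4.58, 5.82 and 17.7 CPM in lung BrM, against 0.323, 0, 0.397, 0 and 0.357 CPM in non-tumor libraries. The groups did not overlap (log2 5.19 ± 0.85, adjusted p = 0.00017), and the lung pool 56195-56520, where E2f1 was at 0, held the most. Ccne1, the cyclin E with the higher mean FPKM over all 28 libraries, though Ccne2 was higher in the non-tumor groups of both sorts, had 14.9, 4.17, 17.7, 14.7 and 14 CPM in breast BrM and 11.9, 13.3, 4.72, 5.82 and 8.43 CPM in lung BrM, against 0, 0.0621, 0.0567, 0 and 0.46 CPM in non-tumor libraries. All BrM libraries were above the non-tumor ones, which held 11 counts in all (log2 6.47 ± 0.86, adjusted p = 2.3e-05). Ccne2 had 13.8, 3.92, 6.41, 9.98 and 6.34 CPM in breast BrM and 4.58, 5.42, 2.73, 4.7 and 0.31 CPM in lung BrM, against 3.02, 2.87, 4.55, 4.01 and 4.06 CPM in non-tumor libraries. Breast libraries reached 13.8 CPM, the lung ones at most 5.42 CPM, and the change was not called (log2 0.58 ± 0.52, adjusted p = 0.41).

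In the chromatin group, Slbp, which binds the stem loop of replication-dependent histone mRNA, had 138, 97.9, 106, 132 and 110 CPM in breast BrM and 115, 67, 78.5, 132 and 91.3 CPM in lung BrM, against 57.8, 61.2, 48.1, 65.8 and 61.5 CPM in non-tumor libraries. BrM and non-tumor libraries did not overlap (log2 0.90 ± 0.16, adjusted p = 0.00036). Uhrf1, which brings the maintenance DNA methyltransferase to new DNA, had 74.5, 32.7, 61.5, 60.3 and 49.3 CPM in breast BrM and 73.1, 86.6, 27, 39.7 and 48.6 CPM in lung BrM, against 8.33, 2.3, 12.4, 3.67 and 3.37 CPM in non-tumor libraries. It was higher in all BrM libraries (log2 3.25 ± 0.44, adjusted p = 2.5e-05). Both subunits of the histone chaperone CAF-1 were called, Chaf1a at log2 1.86 ± 0.46 and Chaf1b at log2 2.38 ± 0.54. In the fork checkpoint group, Clspn, the adaptor claspin, had 6.92, 8.03, 12.8, 6.12 and 8.23 CPM in breast BrM and 6.71, 11.9, 3.65, 2.09 and 0 CPM in lung BrM, against 0.215, 0.0621, 0.284, 0 and 0 CPM in non-tumor libraries. 9 of 10 BrM libraries exceeded the non-tumor ones (log2 5.79 ± 1.17, adjusted p = 0.001). Tipin, a fork protection factor, had 54.9, 37.6, 47.4, 44.1 and 36.6 CPM in breast BrM and 53.3, 22, 49.4, 36.3 and 22.9 CPM in lung BrM, against 31.2, 44.9, 36.6, 41.9 and 43.2 CPM in non-tumor libraries. 4 BrM libraries lay above the non-tumor range and 2 below it (log2 0.07 ± 0.21, adjusted p = 0.82).

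The size of the change followed the level without tumor. The 9 genes under 1 CPM in non-tumor CD31 libraries (Orc1, Cdc6, Mcm10, Pole, Rrm2, E2f1, E2f2, Ccne1 and Clspn) were all called, with a median log2 change of 5.77. Of the 8 genes between 1 and 5 CPM, 7 were called (median 2.51), of the 10 between 5 and 20 CPM, 6 (median 1.28), and of the 14 at 20 CPM or more, 9 (median 0.70). This is a description, since a gene near 0 in the non-tumor group has more room to rise. Lung and breast BrM did not differ in any of the 41 genes by edgeR's test, beside 2.13% of all genes called in either direction, with differences (lung over breast) between -1.33 and 0.81 on the log2 scale. At an unadjusted p under 0.05 there were 2, Mcm6 at -0.68 ± 0.20, adjusted p = 0.11 and Dut at 0.81 ± 0.33, adjusted p = 0.27, while DESeq2 called 1 gene and limma-voom 0.

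**Figure D2:**
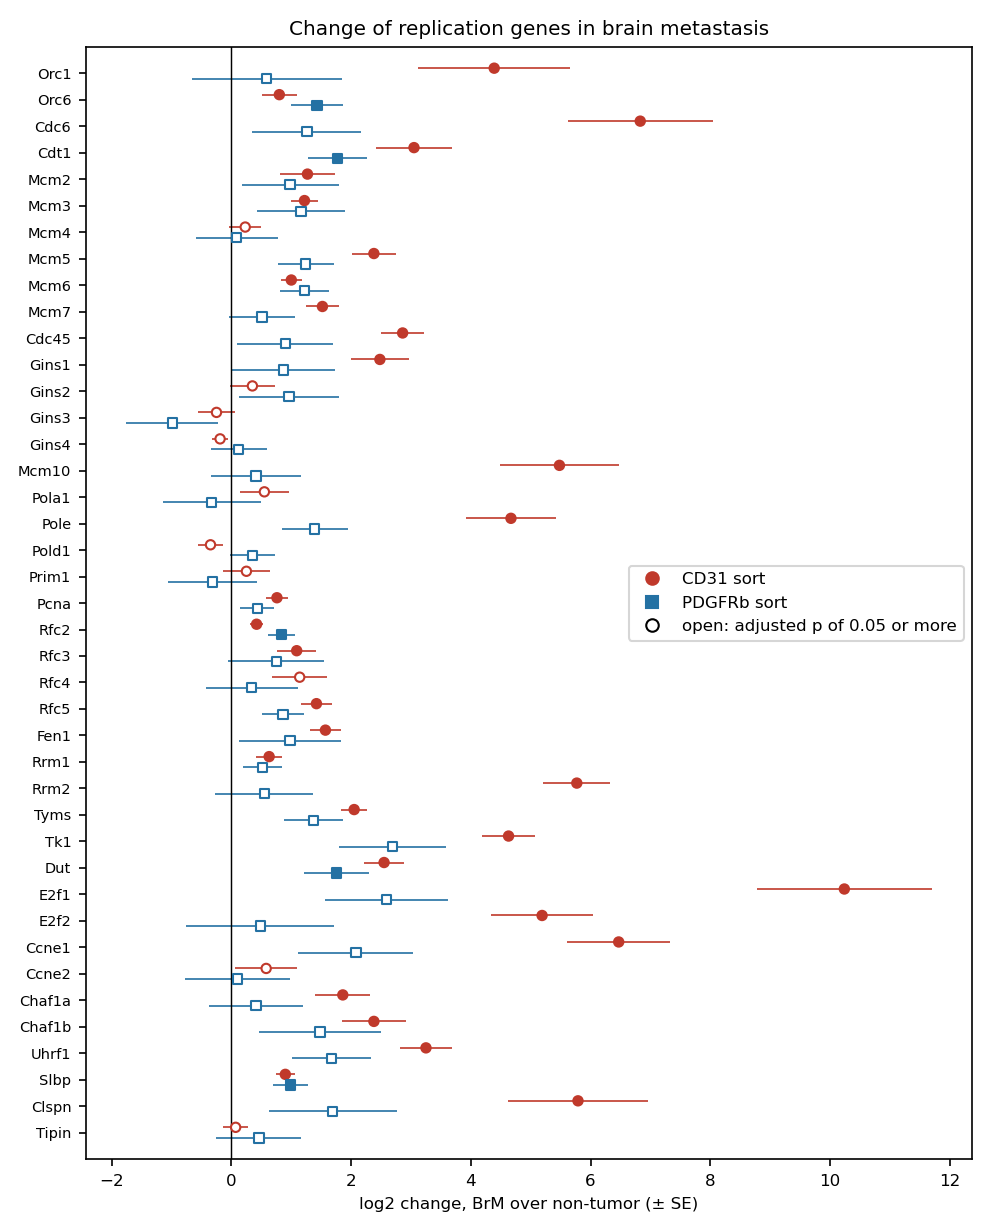
Log2 change of each replication gene, BrM over non-tumor (x axis, ± SE), in the CD31 sort (circles) and the PDGFRb sort (squares), with filled symbols for genes called at an adjusted p under 0.05. In the CD31 sort 31 of 41 symbols are filled and in the PDGFRb sort 5; the E2f1 circle is a fitted value against a group at 0 and is no bound.

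Dates in the column names of the count table divide the libraries, with breast and lung BrM always on different dates. Within the dates that hold both conditions, the summed CD31 level of the 41 genes was 2150 to 2290 CPM in 2 breast BrM libraries against 678 CPM in 1 non-tumor library, 985 to 1920 CPM in 3 breast BrM libraries against 768 CPM in 1 non-tumor library, and 1320 to 1460 CPM in 2 lung BrM libraries against 713 to 731 CPM in 2 non-tumor libraries. With the date as a covariate, 24 genes were called for BrM, all among the 31, but 10 for lung BrM in place of 29. Grouping mouse 54135 by its cell type label in place of its title left 14 genes called for BrM, all among the 31, 13 for breast and 7 for lung BrM. The shares of all genes called with the date or with this grouping are not given here.

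The promoters of these genes are shown because many of the genes moved together and E2F sites are a textbook feature of the family. In RefSeq promoter windows (GRCm38.p6, 250 bases before to 50 after the start), 33 of the 41 genes had an entry, with 37 windows. The E2F words searched on both strands were TTTGGCGC, TTTCCCGC, TTTCGCGC and TTTGCCGC. They occurred in 14 of the 37 windows (37.8%), beside 2.26% of all 32851 windows of the same length. CCAAT, on either strand, occurred in 24 of 37 windows (64.9%), beside 37.4% of all windows. A word was found for 11 of the 28 called genes with an entry (Mcm3, Mcm5, Mcm6, Mcm7, Orc1, Cdc6, Cdt1, Clspn, E2f2, Rfc3 and Uhrf1) and for 3 of the 5 uncalled ones (Gins3, Pola1 and Pold1). These shares were not tested against each other. A match is a description of the letters and not a measured site. The windows of Mcm6, with 3 words of which 2 overlap, of Cdc6, and of Clspn and E2f2, the genes with the lowest carry-over shares below, read as follows, with the E2F words in capitals.
Mcm6 (chr1:128359656-128359955, minus strand): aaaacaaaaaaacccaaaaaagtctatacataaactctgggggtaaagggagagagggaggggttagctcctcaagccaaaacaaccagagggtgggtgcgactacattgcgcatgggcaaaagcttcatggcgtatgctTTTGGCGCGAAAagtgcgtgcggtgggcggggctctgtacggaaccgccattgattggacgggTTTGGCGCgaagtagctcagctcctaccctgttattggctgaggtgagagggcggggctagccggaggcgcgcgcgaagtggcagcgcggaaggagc
Cdc6 (chr11:98907901-98908200, plus strand): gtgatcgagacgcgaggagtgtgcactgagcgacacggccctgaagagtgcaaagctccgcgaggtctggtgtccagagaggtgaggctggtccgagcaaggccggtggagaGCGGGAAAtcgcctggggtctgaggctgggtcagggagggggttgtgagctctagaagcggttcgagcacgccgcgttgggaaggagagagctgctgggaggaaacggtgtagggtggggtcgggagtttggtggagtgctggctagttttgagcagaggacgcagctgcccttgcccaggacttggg
Clspn (chr4:126556730-126557029, plus strand): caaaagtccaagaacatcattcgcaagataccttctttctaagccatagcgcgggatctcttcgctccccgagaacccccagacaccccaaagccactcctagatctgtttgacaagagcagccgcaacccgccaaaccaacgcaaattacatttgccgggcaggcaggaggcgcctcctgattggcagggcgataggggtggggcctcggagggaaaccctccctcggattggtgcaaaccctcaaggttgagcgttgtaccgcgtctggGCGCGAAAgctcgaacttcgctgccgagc
E2f2 (chr4:136172024-136172323, plus strand): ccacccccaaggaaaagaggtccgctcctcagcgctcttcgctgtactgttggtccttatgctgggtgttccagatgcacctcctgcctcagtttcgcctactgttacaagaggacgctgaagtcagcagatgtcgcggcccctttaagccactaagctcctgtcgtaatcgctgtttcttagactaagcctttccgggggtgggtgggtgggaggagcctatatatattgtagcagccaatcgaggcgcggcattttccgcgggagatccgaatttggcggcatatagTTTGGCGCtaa

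In the PDGFRb sort fewer replication genes were called. Epithelial sums in this sort were 1150 to 5230 CPM in breast BrM and 6260 to 11500 CPM in lung BrM. Its non-tumor libraries had 30.6 to 137 CPM. The part of cancer RNA in the PDGFRb values was not tested. For BrM against non-tumor, 5 genes were higher and 0 lower (Slbp, Cdt1, Rfc2, Dut and Orc6), beside 8.95% of the 17028 genes tested that were called higher. For breast BrM, 2 were called (Slbp and Mcm6), beside 6.3%, and for lung BrM 7 (Cdt1, Pole, Rfc2, Tk1, Dut, Pcna and Orc6), beside 9.91%. In 1 of the 41 genes, Rfc2, all BrM libraries lay above all non-tumor ones, beside 3.77% of all genes, but in 22 genes all 4 lung libraries did, beside 18.9%. Lung and breast BrM differed in 0 genes by edgeR, beside 5.47% of all genes, while 2 (Rrm2 and Pcna) had an unadjusted p under 0.05, and DESeq2 and limma-voom each called 2. These counts turned on a few libraries: without both libraries of breast mouse 51950, 15 genes were called for BrM, 5 for breast and 18 for lung BrM, while without the 3 lung libraries low in Pdgfrb, which leaves 1 lung library assumed to vary like the rest, all 3 counts were 0. Leaving out single PDGFRb libraries gave 0 to 15 for BrM. The shares of all genes called in these fits are not given here, so the shifts cannot be read as particular to the replication genes.

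Orc6 in the PDGFRb sort had 120, 25.8, 25.6 and 39.7 CPM in breast BrM and 55.6, 80.1, 77.9 and 61.6 CPM in lung BrM, against 22.4, 17.1, 30.1, 28.4 and 16.8 CPM in non-tumor libraries. The library of mouse 51950 stood far above the other breast ones, and all 4 lung libraries lay above the non-tumor range (log2 for BrM 1.43 ± 0.43, adjusted p = 0.035). Slbp had 423, 148, 140 and 155 CPM in breast BrM and 168, 133, 142 and 116 CPM in lung BrM, against 71.7, 80.5, 95.7, 125 and 75.4 CPM in non-tumor libraries. Mouse 51950 was again highest, and 7 of 8 BrM libraries exceeded the non-tumor ones (log2 0.99 ± 0.29, adjusted p = 0.03). Dut had 118, 12.8, 16 and 31 CPM in breast BrM and 96.1, 137, 112 and 78.5 CPM in lung BrM, against 18.9, 17.6, 32.4, 24 and 10.2 CPM in non-tumor libraries. The lung libraries and mouse 51950 were high, and the other breast libraries were within the non-tumor range (log2 1.76 ± 0.54, adjusted p = 0.036).

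Mcm6 in this sort had 674, 117, 111 and 158 CPM in breast BrM and 145, 150, 143 and 172 CPM in lung BrM, against 70.5, 63.6, 121, 105 and 80.5 CPM in non-tumor libraries. Its value of 674 CPM in mouse 51950 was the highest of any replication gene in any library, with the gene not called for BrM (log2 1.22 ± 0.41, adjusted p = 0.055). Rfc5 had 191, 55.5, 53.1 and 97.2 CPM in breast BrM and 62.4, 73.5, 42.6 and 58.4 CPM in lung BrM, against 45.2, 28.3, 43.2, 61.4 and 38.6 CPM in non-tumor libraries. Uhrf1 had 215, 39.2, 47.1 and 76.5 CPM in breast BrM and 69.3, 52.1, 66.7 and 77.6 CPM in lung BrM, against 14, 2.21, 54.1, 44.3 and 12.2 CPM in non-tumor libraries. For both, mouse 51950 was the highest library, and the non-tumor range was exceeded in 4 of 8 BrM libraries for Rfc5 and in 5 for Uhrf1 (log2 0.86 ± 0.35, adjusted p = 0.12 for Rfc5, and 1.67 ± 0.66, adjusted p = 0.097 for Uhrf1). Tyms had 95.6, 44.3, 51.4 and 99.7 CPM in breast BrM and 85.4, 78.8, 76.4 and 72 CPM in lung BrM, against 19.9, 4.21, 62.5, 40.6 and 22.5 CPM in non-tumor libraries. Lung BrM and 2 breast libraries lay above the non-tumor range, which mouse 54135 topped (log2 1.37 ± 0.50, adjusted p = 0.078). Pcna had 36.5, 85.4, 82.1 and 101 CPM in breast BrM and 190, 222, 155 and 138 CPM in lung BrM, against 64.2, 80.6, 108, 119 and 70.3 CPM in non-tumor libraries. Lung BrM was high and mouse 51950 was the lowest of all 13 libraries (log2 0.43 ± 0.28, adjusted p = 0.33).

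Rrm2, Mcm10, E2f1, E2f2, Ccne1 and Clspn, under 1 CPM on average in non-tumor CD31 libraries, had counts in most non-tumor PDGFRb libraries. Rrm2 in the PDGFRb sort had 0.166, 32.5, 36.1 and 60.5 CPM in breast BrM and 165, 241, 145 and 325 CPM in lung BrM, against 39.5, 3.55, 134, 80 and 40.9 CPM in non-tumor libraries. All 4 lung libraries lay above the non-tumor range and no breast library did, and the change for BrM did not pass (log2 0.55 ± 0.82, adjusted p = 0.72). Mcm10 had 0, 5.69, 5.55 and 8.19 CPM in breast BrM and 5.22, 10.5, 14.9 and 10.6 CPM in lung BrM, against 4.29, 3.8, 7.2, 6.31 and 6.16 CPM in non-tumor libraries. Non-tumor and BrM values overlapped (log2 0.41 ± 0.76, adjusted p = 0.78). E2f1 had 0, 13.4, 4.96 and 22.5 CPM in breast BrM and 9.98, 25.5, 11.8 and 16 CPM in lung BrM, against 1.07, 0.154, 4.59, 2.87 and 2.22 CPM in non-tumor libraries. Outside mouse 51950, BrM values were above the non-tumor ones (log2 2.59 ± 1.03, adjusted p = 0.1). E2f2 had 0, 1.54, 0 and 1.28 CPM in breast BrM and 1.33, 2.86, 3.42 and 4.86 CPM in lung BrM, against 0.0631, 0, 2.52, 1.94 and 1.03 CPM in non-tumor libraries. It was low in both conditions, and in breast BrM 2 of 4 libraries were at 0 (log2 0.48 ± 1.24, adjusted p = 0.85). Ccne1 had 0, 6.75, 4.37 and 14.5 CPM in breast BrM and 8.04, 6.39, 7.28 and 6.55 CPM in lung BrM, against 0.758, 1.7, 4.1, 1.32 and 0.278 CPM in non-tumor libraries. In 7 of 8 BrM libraries it exceeded the non-tumor range, with mouse 51950 at 0 (log2 2.08 ± 0.96, adjusted p = 0.16). Clspn had 0, 4.25, 6.47 and 3.63 CPM in breast BrM and 2.2, 8.73, 1.98 and 5.56 CPM in lung BrM, against 1.58, 0, 1.67, 1.94 and 1.35 CPM in non-tumor libraries. The pattern was the same, with a wide error (log2 1.69 ± 1.07, adjusted p = 0.32).

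The genes not called in the CD31 sort were not called in the PDGFRb sort either. Few genes were called there at all (5 of 41 for BrM), so this shows no likeness between the sorts. Gins4 had 4.98, 36.2, 62.5 and 64.1 CPM in breast BrM and 35.6, 48.9, 42.9 and 36.9 CPM in lung BrM, against 43.2, 38, 38.7, 43.9 and 33.3 CPM in non-tumor libraries. Apart from 4.98 CPM in mouse 51950 it stayed between 33.3 and 64.1 CPM. Gins2 had 0, 17.7, 34.9 and 41.4 CPM in breast BrM and 42.1, 59.9, 42 and 61.3 CPM in lung BrM, against 12.2, 7.81, 43.9, 19.7 and 8.82 CPM in non-tumor libraries. Gins3 had 0, 4.57, 4.45 and 7.41 CPM in breast BrM and 6.91, 4.29, 2.37 and 9.6 CPM in lung BrM, against 4.29, 4.93, 15.9, 13.8 and 11.2 CPM in non-tumor libraries. Neither separated the conditions. Pold1 had 10.9, 28.6, 35.4 and 35.3 CPM in breast BrM and 45.3, 47.3, 42.6 and 72.7 CPM in lung BrM, against 31.4, 23.2, 40, 36.7 and 22.6 CPM in non-tumor libraries. Pola1 had 0, 4.73, 5.46 and 13 CPM in breast BrM and 4.2, 9.48, 11.5 and 4.68 CPM in lung BrM, against 7.64, 2, 13.9, 12.2 and 7.35 CPM in non-tumor libraries. Of these, Pold1 was above the non-tumor range in the lung libraries. Prim1 had 0, 12.9, 14.5 and 26.2 CPM in breast BrM and 47.3, 32, 15 and 33.3 CPM in lung BrM, against 19.9, 19.5, 38.7, 29.1 and 25.8 CPM in non-tumor libraries. Tipin had 0.166, 33.9, 42.4 and 61 CPM in breast BrM and 86.4, 75, 56.1 and 47.1 CPM in lung BrM, against 15.6, 41.2, 42.6, 43.5 and 34.9 CPM in non-tumor libraries. Mcm4 had 0.166, 27.3, 22.4 and 54 CPM in breast BrM and 67.7, 59.1, 59 and 58.7 CPM in lung BrM, against 32.4, 16.3, 49.3, 53.9 and 41.3 CPM in non-tumor libraries. In these last 3 genes mouse 51950 was at 0 to 0.166 CPM, and Tipin and Mcm4 in lung BrM exceeded the non-tumor libraries. Rfc4 had 0, 16.8, 20 and 32.3 CPM in breast BrM and 26.9, 35.8, 42.3 and 39.8 CPM in lung BrM, against 11.6, 26.3, 31.8, 21 and 11.6 CPM in non-tumor libraries. Ccne2 had 0, 2.07, 1.25 and 11.4 CPM in breast BrM and 2.77, 4.89, 5.15 and 7.61 CPM in lung BrM, against 4.07, 1.65, 3.16, 9.21 and 2.99 CPM in non-tumor libraries. Both overlapped between conditions.

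Between the sorts without tumor, part of the replication genes were called higher in the PDGFRb sort, and the count depended on the fit and on mouse 54135. In non-tumor brain 14 genes were higher in PDGFRb libraries and 0 lower, beside 27.9% of the 18548 genes tested that were called in either direction and 17.4% called higher. Among them were Rrm2 (log2, PDGFRb over CD31, 5.99 ± 0.91, adjusted p = 1.2e-05), Cdc6 (6.18 ± 1.29, adjusted p = 0.00057), Mcm10 (4.85 ± 1.04, adjusted p = 0.00074) and Pole (3.69 ± 0.72, adjusted p = 0.00026). With mouse 54135 grouped by its cell type label, 0 were called. With the mouse as a block, since both sorts came from the same animals, 9 were called. The shares of all genes called in these fits, and in the fit that follows, are not given here. Without mouse 54135, whose PDGFRb library held the most neuron RNA (797 CPM over 6 neuron markers, against 1.89 to 200 CPM in the other 4), 8 were called. Astrocyte markers also summed higher in PDGFRb non-tumor libraries (230 to 3660 CPM) than in CD31 non-tumor libraries (98.7 to 173 CPM); the part of this RNA was not tested. In BrM 2 genes were called in breast BrM (Slbp and Rfc5, higher in PDGFRb, beside 16.5% of all genes in either direction) and 2 in lung BrM (Rrm2 and Dut, beside 19.6%), and 0 in each with the mouse as a block. Leaving out single libraries moved these counts over 0 to 3 in breast and 0 to 8 in lung BrM, and without both libraries of mouse 51950 they were 0 and 8.

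The effect of BrM itself differed between the sorts in 7 genes for breast and 3 for lung, all with the larger log2 rise in the CD31 sort. For breast these were Ccne1, Pole, Cdc6, E2f2, Rrm2, Mcm10 and E2f1, beside 5.93% of all genes called in either direction. For lung they were Rrm2, Mcm10 and E2f1, beside 10.1%, a share this count does not exceed. All 7 genes averaged under 1 CPM in non-tumor CD31 libraries, and each had a higher mean in non-tumor PDGFRb libraries (Rrm2 0.932 against 59.5 CPM). In lung BrM the means of Rrm2, Mcm10 and E2f1 were also higher in the PDGFRb sort (Rrm2 219 against 45.2 CPM). The larger log2 rise is therefore no higher level in the CD31 sort. Rrm2 showed a difference of 6.73 ± 1.20, adjusted p = 0.0007 for breast and 3.71 ± 1.12, adjusted p = 0.033 for lung (log2, CD31 effect less PDGFRb effect), and Mcm10 of 5.95 ± 1.41, adjusted p = 0.0098 and 4.21 ± 1.35, adjusted p = 0.045. The fitted difference of E2f1 rests on a group at 0 and is no size. With the mouse as a block, 1 gene was called for breast and 0 for lung. Without mouse 54135 the counts were 4 and 0, and without both libraries of mouse 51950 the lung count was 7.

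**Figure D3:**
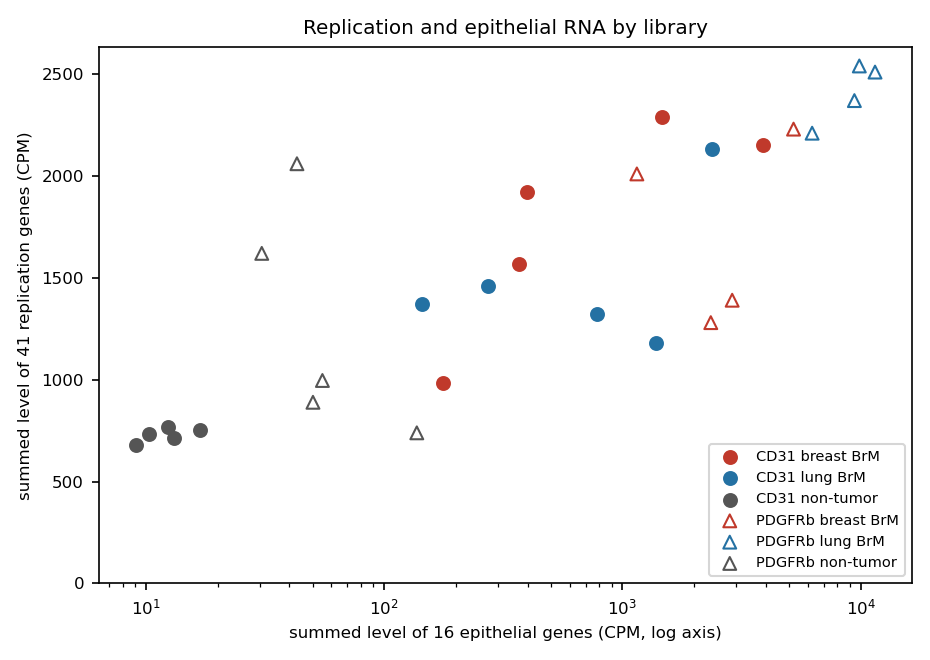
Summed level of the 41 replication genes (y axis, CPM) against the summed level of 16 epithelial genes (x axis, CPM, log axis) in each of the 28 libraries, filled circles for the CD31 sort and open triangles for the PDGFRb sort. CD31 libraries of BrM lie at 985 to 2290 CPM over an epithelial range of 144 to 3880 CPM, above the non-tumor CD31 libraries at 678 to 768 CPM.

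Carry-over of cancer RNA was estimated in the 8 BrM mice or pools with both sorts. The ratio of epithelial RNA in a mouse's CD31 library to that in its PDGFRb library (the epithelial ratio) was multiplied by each gene's level in that PDGFRb library, on unscaled CPM. This credits all RNA of the gene in the PDGFRb library to cancer cells, mural RNA included. The ratio was 128% in breast mouse 51950 and 74.1% in breast mouse 53072, and 7.56% and 13.8% in breast mice 52599 and 52865. In lung BrM it was 37.8% in mouse 51435, 7.9% in mouse 54957, 1.53% in pool 55169-70 and 2.36% in pool 56195-56520. The ratio of the summed replication RNA was higher than the epithelial ratio in 7 of the 8, at 76.9%, 138% and 96.3% in breast mice 52599, 52865 and 53072 and 96.7%, 51.8%, 57.7% and 58.1% in the lung mice in the order above, and lower in mouse 51950, at 114%. Part of these higher ratios was set in advance. Non-tumor CD31 libraries already held 678 to 768 CPM of replication RNA, beside 9.04 to 16.9 CPM of epithelial RNA. The comparison of the ratios is therefore no measure of a rise. The estimate made up 112% and 77% of the CD31 replication RNA in breast mice 51950 and 53072, 9.83% and 9.99% in 52599 and 52865, and 39.1%, 15.2%, 2.65% and 4.07% in lung BrM. In the 3 lung libraries with mural sums of 323 to 552 CPM, which hold little mural RNA to inflate it, the estimate was 2.65% to 15.2%.

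Averaged over the 8 mice, the carried level came to a median of 27.3% of the CD31 level over the 41 genes, and to 29.8% over the 31 called ones. Against the rise over non-tumor, rather than the level, the median of the called genes was 38.1%. E2f2 had the lowest share (2.95% of its level, 3.03% of its rise), before Clspn (12.3%) and Mcm10 (14.0%). These 3 genes are at 0 in the PDGFRb library of mouse 51950, which sets their carried level there to 0 in spite of its ratio of 128%. Without that mouse the shares were 3.46% for E2f2, 14.5% for Clspn, 17% for Chaf1a and 17.7% for Mcm10, and the highest were 41.4% for Cdc6, 41.3% for E2f1 and 40.6% for Rfc5. Over all 8 mice the highest shares were those of Rfc5 (92.9%), Dut (85.1%) and Uhrf1 (79.6%), and in 7 called genes the carried level was 50% of the level or more (with Mcm6, Slbp, Orc6 and Rrm1). In 7 called genes the carried level reached the rise: 147% for Mcm6, 146% for Rfc5, 152% for Slbp, 139% for Rfc2, 137% for Rrm1, 129% for Orc6 and 101% for Dut. For each of these 7 genes the PDGFRb library of mouse 51950 held the highest level of the breast libraries. In the 6 mice with an epithelial ratio of 50% or less, the median share over called genes was 14.9% of the level and 21.2% of the rise, 28 of 31 genes had a share of 25% or less, and no called gene reached 50% of level or rise (highest 32.6% of the level for Rrm2, 47.8% of the rise for Rfc2). Rfc5 then stood at 19.3%, Dut at 28% and Uhrf1 at 14.9%. These 6 mice were picked by the ratio that scales the estimate, so their lower shares follow in part from that choice.

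**Figure D4:**
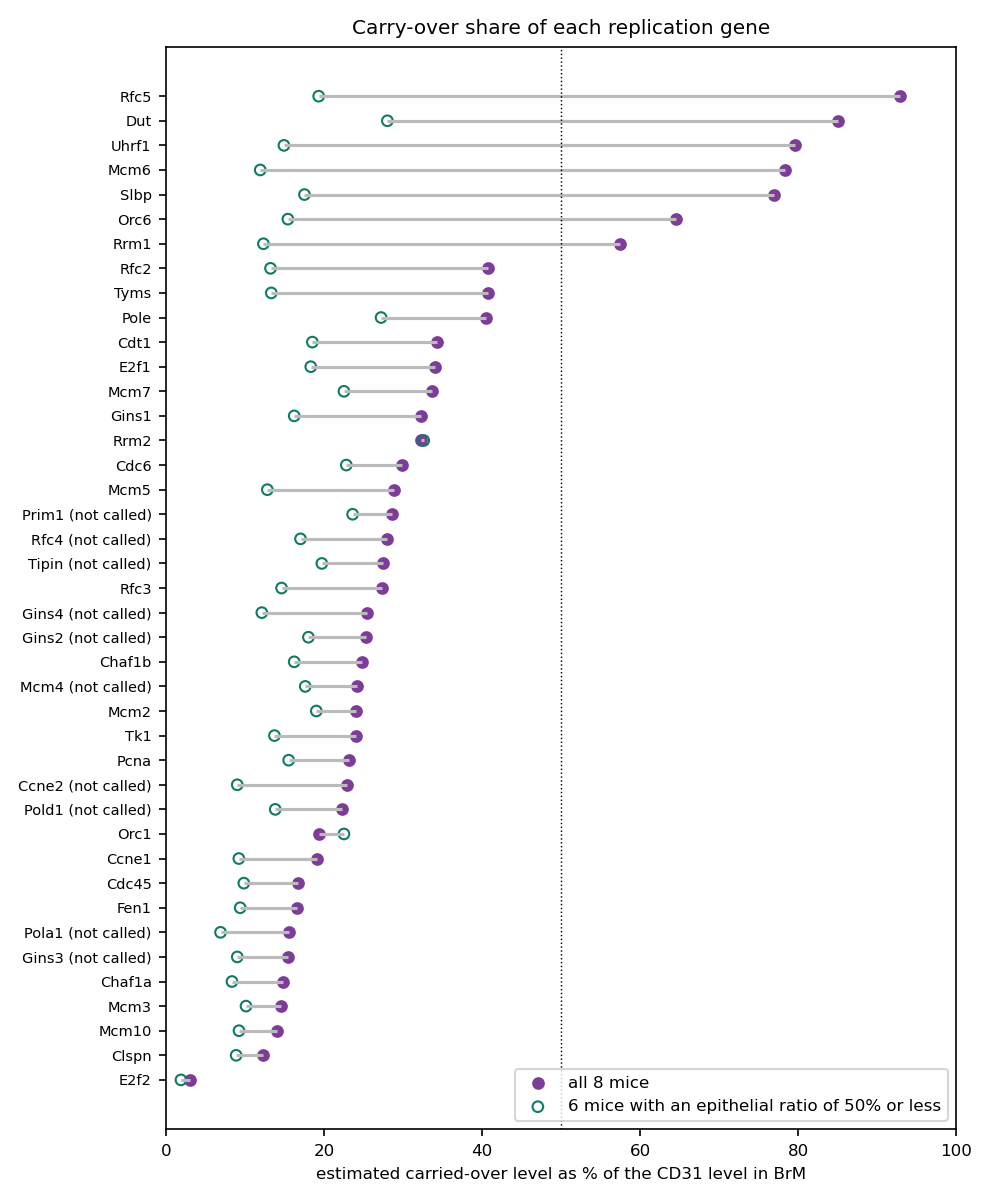
Estimated carried-over level of each replication gene as a percentage of its mean CD31 level in BrM (x axis), over all 8 mice with both sorts (filled circles) and over the 6 mice with an epithelial ratio of 50% or less (open circles), ordered by the shares over all 8. In the 6 mice all 41 genes lie at 32.6% or less, and E2f2 lies lowest in both sets, at 2.95% and 1.86%. The 6 mice were picked by the ratio that scales the estimate, so their lower shares follow in part from that choice.

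Gene by gene within a mouse, 18 to 37 of the 41 replication genes were above the non-tumor libraries after the estimate was taken off. In lung pools 55169-70 and 56195-56520, 35 and 27 of the 41 genes exceeded the highest non-tumor CD31 library both before and after subtraction, beside 35.8% and 33.3% of all genes after it. In lung mouse 54957 the count was 32 after subtraction (beside 30.3%), against 35 before, and in lung mouse 51435 it was 31 (beside 17.8%), against 38. Breast mice 52865 and 52599 kept 37 (beside 29.9%) of 39 and 25 (beside 31.7%) of 26. In breast mice 51950 and 53072, with the highest epithelial ratios, it was 29 (beside 24.2%) of 38 and 18 (beside 8.59%) of 38. Of the 29 genes in mouse 51950, 20 were at 0 in its PDGFRb library, so that nothing was taken off them, and 9 of the other 18 stayed above. Before subtraction 34.4% to 41.1% of all genes exceeded the non-tumor maximum in these libraries.

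After subtraction of the estimate from the counts, the test for BrM called 16 of the 41 genes, all among the 31, beside 6.25% of the 14630 genes tested. The median log2 change of the 41 genes was 1.36, against -0.15 over all genes tested. Of the 16, 11 were at 0 in the PDGFRb library of mouse 51950, and without both libraries of that mouse 21 genes were called, the 16 among them. The 16 were Orc1, Cdc6, Mcm3, Mcm5, Cdc45, Mcm10, Pole, Pcna, Fen1, Rrm2, Tk1, E2f1, E2f2, Ccne1, Chaf1a and Clspn, with 15 called for breast BrM (beside 5.17%) and 13 for lung BrM (beside 5.11%). They included all 9 genes under 1 CPM without tumor, 3 of the 8 between 1 and 5 CPM, 2 of the 10 between 5 and 20 CPM and 2 of the 14 above. Rrm2 kept a log2 change of 5.73 ± 0.44, adjusted p = 1.5e-05, Tk1 of 4.63 ± 0.60, adjusted p = 0.00045, Cdc45 of 2.97 ± 0.45, adjusted p = 0.0012, Ccne1 of 6.45 ± 1.08, adjusted p = 0.0024 and E2f2 of 5.50 ± 0.99, adjusted p = 0.0036. Lung and breast BrM differed in 0 of the 41 genes after subtraction by edgeR (0 also at an unadjusted p under 0.05), beside 0.0% of all genes. Among those lost, Tyms had 1.71 ± 0.96, adjusted p = 0.33, Dut 1.92 ± 1.02, adjusted p = 0.29, Slbp 0.47 ± 0.91, adjusted p = 0.85 and Mcm6 0.92 ± 1.0, adjusted p = 0.68.

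The subtraction also takes off mural RNA: the 8 mural markers tested after it had a median log2 change of -6.43, against -1.27 over 9 mural markers before it. Of 9 epithelial genes tested, 1 was still called higher. The epithelial ratio was set from the sum of these genes' list, so their fall was largely fixed in advance and is no check of the subtraction. Without the 2 mice with an epithelial ratio over 50%, 26 genes were called after subtraction, all among the 31, with Chaf1b, Mcm2, Orc6, Rfc3 and Rrm1 lost. The ratio that scales the estimate also picked these mice, so part of the higher count may follow from that choice. The shares of all genes called without mice, here and above, are not given. With the highest ratio of any single epithelial gene as the estimate, which raised the median share to 89.5%, 0 genes were called, and with the date as a covariate 2.

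Genes that work beside these 41 were listed by role and read in the CD31 sort. There 21.6% of the 14876 genes tested were called higher in BrM, and the share called lower is not given here. Of 33 other replisome genes, 15 were higher in BrM and 1 lower, with a median log2 change of 0.57. The highest changes were those of Ticrr, which couples kinase signals to helicase activation (4.26 ± 1.25, adjusted p = 0.013), Dna2, a nuclease-helicase (2.41 ± 0.50, adjusted p = 0.0013), and Dbf4, the activator of the Cdc7 kinase (2.00 ± 0.37, adjusted p = 0.00043). Of 21 cyclins, kinases and E2F regulators, 8 were higher and 3 lower, led by E2f8, an E2F repressor, Ccna2, the S phase cyclin (5.57 ± 0.40, adjusted p = 3.8e-08), and Ccnd1, cyclin D1 (2.02 ± 0.19, adjusted p = 5.1e-07). E2f8 held 934 counts in BrM and 1 count in non-tumor libraries, a ratio of pooled CPM of 537 with an exact 95% counting interval of 96.2 to 21200 (adjusted p = 0.00011). Of 15 other nucleotide enzymes, 7 were higher and 2 lower, with Dctd, dCMP deaminase, at 5.28 ± 0.89 (adjusted p = 0.00021), Shmt1, a one-carbon enzyme, at 3.48 ± 0.88 (adjusted p = 0.0052) and Rrm2b, the p53-induced reductase subunit, lower at -2.13 ± 0.21 (adjusted p = 8.5e-07).

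All 16 mitosis genes were called higher, beside 21.6% of all genes, with a median log2 change of 6.12. After subtraction of the estimate 15 were called, beside 6.25%. Ccnb2, cyclin B2, had the largest change (8.80 ± 0.40, adjusted p = 4.3e-10), before Birc5, survivin (8.44 ± 0.47, adjusted p = 4.3e-09), and Aurkb, a mitotic kinase (8.23 ± 0.76, adjusted p = 4.7e-07). Of 7 CDK inhibitors, 6 were tested, with 0 higher and 2 lower, a count without the share of all genes called lower to set beside it. Cdkn1c (p57) was lower at -2.41 ± 0.58 (adjusted p = 0.0039) and Cdkn2b (p15) at -0.94 ± 0.23 (adjusted p = 0.0047). Cdkn1a (p21) stood at -0.22 ± 0.29 (adjusted p = 0.59), Cdkn1b (p27) at -0.01 ± 0.40 (adjusted p = 0.98), Cdkn2c (p18) at 0.55 ± 0.42 (adjusted p = 0.32) and Cdkn2d (p19) at -0.22 ± 0.13 (adjusted p = 0.22), while Cdkn2a did not pass the filter. After subtraction neither Cdkn1c nor Cdkn2b was called (adjusted p = 0.20 and 0.11). In the PDGFRb sort, 3 of the 16 mitosis genes and 2 of the 33 other replisome genes were called higher in BrM, beside 8.95% of all genes tested.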

How the data were processed

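RNA of CD31 and PDGFRb sorts was sequenced as SMART-Seq and Nextera XT libraries, without molecular identifiers, per the labels' protocols. The genome build was mm10, and the tools listed are RSEM 1.3.3, STAR 2.7.9a, limma 3.50.3 and edgeR 3.36.0, per the submitters' processing notes; the annotation release is not given in the sources used here. The main input was the authors' deposited table of expected counts per gene (RSEM estimates), which were rounded to whole numbers. The deposited FPKM tables (18665 genes) gave levels compared between genes and an alternative test, and the deposited log2 normalized counts another. Of 53647 gene IDs, 52093 matched a symbol. Multimapping reads and overlapping genes could not be separated further, since the kit does not mark strand.

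edgeR 4.0.16 in R 4.3.3 (TMM scaling, filterByExpr, robust quasi-likelihood test) was fitted to the 3 groups of each sort, and to all 6 groups for comparisons of sorts and differences of effects. The value for BrM averages the coefficients of both origins. Adjusted p-values (Benjamini-Hochberg) run over all genes tested, and a gene is called under 0.05; ± after a log2 change is its SE. Printed CPM are TMM-scaled, except in sums of lists and in the carry-over estimate, which use total counts. Alternatives used limma 3.58.1 and DESeq2 1.42.0, other filters and scalings, and sets of libraries. The edgeR fit to the 3 groups of each sort was tested on simulated counts, for its BrM comparison only. The fit to 6 groups, the fit after subtraction and the alternatives were not. Libraries held 7105171 to 23934038 counts, and intervals and floors (3 counts) cover counting error only.

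Values are given for every library for the gene of each role with the highest FPKM, the 3 lowest and 3 highest carry-over shares and the genes not called; Rrm2, Cdc6 and E2f1 were added after their values were seen. The 41 genes and all lists were chosen with earlier results of these data known. The mouse number in the labels pairs the sorts of an animal (13 pairs, correlation of deviations -0.12 to 0.36, over 0.1 in 3). Values at breast or lung libraries are listed by mouse number: 51950, 52599, 52865, 53072 and, in the CD31 sort, 53142 for breast, and 51435, 51697 (CD31 sort), 54957, 55169-70 and 56195-56520 for lung. Non-tumor libraries run 53680, 54132, 54135, 56727 and 56740. For the subtraction, estimated carried counts were taken off the CD31 counts of the 8 BrM mice with both sorts, floored at 0 and rounded.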

Additional observations from a re-analysis of the deposited data

Results flagged for a closer look

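In 132 groups of 4 or 5 libraries (22 genes), 13 libraries stood apart from their group by Dixon's criterion, which chance meets in about 1 of 20 groups. Of these, 3 were the PDGFRb breast library of mouse 51950, with Orc6 at 120.0 CPM, Mcm6 at 674 CPM and Slbp at 423 CPM. In the PDGFRb lung group, Mcm4 was highest in mouse 51435 (67.7 CPM) and Pold1 in pool 56195-56520 (72.7 CPM). In CD31 breast BrM, mouse 52599 was lowest for Mcm6 (101 CPM) and Ccne1 (4.17 CPM), and mouse 53072 highest for Pola1 (21.5 CPM). In CD31 lung BrM, Pold1 was highest in mouse 51435 (51.3 CPM) and E2f2 in pool 56195-56520 (17.7 CPM). In non-tumor CD31 libraries, Mcm10 was highest in mouse 53680 (0.753 CPM), Dut in mouse 54132 (6.4 CPM) and Ccne1 in mouse 56740 (0.46 CPM).

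The effect of BrM differed between the CD31 and the PDGFRb sort by edgeR's test of that difference (adjusted p under 0.05). This held for 7 genes in breast, beside 5.93% of all genes, and 3 in lung, beside 10.1%, a share the lung count does not exceed. All of them averaged under 1 CPM in non-tumor CD31 libraries. For breast the log2 differences (CD31 effect less PDGFRb effect) were 4.73 for Ccne1, 3.90 for Pole, 6.44 for Cdc6, 5.79 for E2f2, 6.73 for Rrm2, 5.95 for Mcm10 and 8.72 for E2f1. For lung they were 3.71 for Rrm2, 4.21 for Mcm10 and 6.74 for E2f1. Both E2f1 values are fitted against a CD31 non-tumor group at 0. With the mouse as a block, 1 gene was called for breast and 0 for lung.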

How the results depend on the processing

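Leaving out single libraries kept the CD31 counts at 28 to 32 (BrM), 28 to 32 (breast), 26 to 31 (lung) and 0 to 1 (lung against breast). The PDGFRb counts ranged over 0 to 15, 0 to 5, 2 to 18 and 0 to 3, the PDGFRb over CD31 counts over 9 to 18 (non-tumor), 0 to 3 (breast) and 0 to 8 (lung), and the differences of effects over 5 to 9 (breast) and 1 to 9 (lung). The count after subtraction ranged over 11 to 21 and the median share over 14.4% to 29.1%. Tipin ranged over -0.01 to 0.13. With the mouse as replicate block, the PDGFRb over CD31 counts were 9, 0 and 0 and the differences of effects 1 and 0; no CD31 or PDGFRb count within a sort was fitted with it. In what follows, PDGFRb counts are for BrM, breast, lung and lung against breast as named, and the cause of each change was not tested. The share of all genes called under each setting is not given here, so a shift cannot be read as particular to the replication genes.

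Requiring a log2 change of 1 gave 3 for PDGFRb BrM and 1 for PDGFRb over CD31 in breast. RLE scaling gave 1, 1, 2 and 1 in the PDGFRb sort, and upper-quartile scaling 4 and 1 for PDGFRb over CD31 in breast and lung and 5 for the lung difference. limma-voom gave 1 (breast), 11 (lung) and 2 (lung against breast) in the PDGFRb sort, and 9 and 4 for PDGFRb over CD31 without tumor and in lung. DESeq2 gave 1 for CD31 lung against breast, 8, 1 and 2 for PDGFRb BrM, breast and lung against breast, and 6 for the lung difference. No filter gave 1, 0 and 3 in the PDGFRb sort and 0 and 0 between sorts in BrM, and a 1 CPM filter 1 for PDGFRb breast. The deposited log2 values gave 3, 0, 4 and 1 in the PDGFRb sort. FPKM tests gave 1 (lung against breast) with a pseudocount of 1, 1 and 1 (breast, lung against breast) with 0.1, and 9 and 3 (BrM, lung against breast) above a mean of 1.

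Without mouse 54135, PDGFRb counts were 3, 0 and 3, sort counts 8 (non-tumor) and 1 (lung), and differences 4 and 0. Without the pools they were 0, 0 and 0, with 0 for lung between sorts and 0 for its difference. Without mouse 51950 they were 15, 5, 18 and 3, with 0 and 8 between sorts in breast and lung and 7 for the lung difference. Grouping 54135 by its cell type label gave 14, 13 and 7 in the CD31 sort, 1 for PDGFRb breast, 0, 0 and 0 between sorts, 0 and 0 for the differences and 3 after subtraction. The date covariate gave 10 for CD31 lung, 0, 0 and 0 in the PDGFRb sort, 1 and 1 between sorts in BrM, 1 for the lung difference and 2 after subtraction. The CD31 libraries lowest in epithelial RNA gave 19 for breast, and the epithelial covariate 5, 5 and 5. Without CD31 lung 56195-56520 and breast 52599, lung against breast gave 1. Without PDGFRb lung libraries under 100 CPM of Pdgfrb, PDGFRb counts were 0, 0 and 0. The highest epithelial ratio gave 0 after subtraction and a share of 89.5%, and leaving out mice over 50% gave 26. Leaving out mouse 51950 or mice over 50%, and leaving out the last-named pair of CD31 libraries, were chosen after seeing the data.

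The log2 change of single genes turned sign for Pold1 (0.09, 0.10 and 0.09 on the FPKM settings), Prim1 (-0.17 with 54135 by label), Mcm4 and Ccne2 (-0.06 and -0.20 with the date), Mcm4, Prim1, Ccne2 and Tipin (-0.09, -0.06, -0.03 and -0.22 in the libraries lowest in epithelial RNA), and, with the epithelial covariate, Mcm2 (-0.40), Mcm4 (-0.77), Gins2 (-0.24), Prim1 (-0.85), Rfc4 (-0.29), Rrm1 (-0.26), Ccne2 (-0.93) and Tipin (-0.60).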
